A study of Mus musculus with 10 samples.

Results

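The RNA of 42 mouse genes for copying DNA and entering S phase was followed in popliteal lymph nodes, the nodes behind the knee that drain the hind paw. The members were given by name, with earlier results of these data known. All 42 were found by gene symbol among the 54987 genes of the authors' table of FPKM (fragments per kilobase of gene, scaled to read depth). Nodes came from BALB/c males aged 6 to 8 weeks and were taken on day 15. Control mice received saline in the right hind paw (3 libraries, labelled 15, 16 and 17). AIA mice received complete Freund's adjuvant (0.1 ml), killed mycobacteria in oil, which induces arthritis (4 libraries, 5, 10, 31 and 38). Acu mice received the same adjuvant and acupuncture at the point ST36 below the knee (3 libraries, 4, 6 and 28). A sham acupuncture group named in the labels' protocols was not analysed here. The title of the series puts the question of what acupuncture does to immune cell proliferation. Separate mice are not stated for the libraries, so p-values cover only the spread among them, which may be technical.

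Before a cell copies its DNA, the origin recognition complex (Orc1) with Cdc6 and Cdt1 loads rings of the Mcm2 to Mcm7 helicase onto chromatin, a step that geminin (Gmnn) blocks once S phase has begun. Cdc45 and the GINS complex switch the rings on, and polymerases, the sliding clamp Pcna and its loader then copy both strands. Many of these genes are transcribed together at the G1 to S boundary under E2F factors, so their RNA is high in dividing lymphocytes and low in resting ones. In a draining lymph node an antigen with adjuvant sets off division of T cells and B cells.

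Promoter windows show which members carry the letters that E2F factors are known to bind. RefSeq windows of build GRCm38.p6, from 250 bases before to 50 after a transcript start, were held for 34 of the 42 members, and Gins1, Mcm4, Gins2, Gmnn, Exo1, Ccne2, Tipin and Pole had none. At least 1 of the octamers TTTCCCGC, TTTCGCGC, TTTGCCGC and TTTGGCGC, on either strand, stood in 14 of the 34 members (41.2%), against 704 of 27025 genes in the same table (2.6%). A gene counted if any of its windows held one. By window the share was 14 of 41 for the members (34.1%) and 2.26% for all windows. The pentamer CCAAT, which NF-Y binds, stood in 20 of the 34 (58.8%) against 41.1% of all genes, and the TTTGAA of late cell cycle promoters in 4 (11.8%) against 20.2%. The 250 bases before the start are shown for 4 members whose RNA is described below: Mcm5 and Mcm6 for their overlapping octamers, Uhrf1 for a single one, and Rrm2, a subunit of the enzyme that makes deoxyribonucleotides, for having none. Capitals mark the E2F octamers, and each sequence reads 5′ to 3′ towards its gene. The Uhrf1 window shown lies between annotated exons of the gene in GENCODE M21, before a downstream RefSeq start. The other Uhrf1 window, at the annotated gene start, held no octamer. The last 13 bases of the Rrm2 window lie in its 5′ UTR by GENCODE M21.
Mcm5, chr8:75109259-75109508, plus strand: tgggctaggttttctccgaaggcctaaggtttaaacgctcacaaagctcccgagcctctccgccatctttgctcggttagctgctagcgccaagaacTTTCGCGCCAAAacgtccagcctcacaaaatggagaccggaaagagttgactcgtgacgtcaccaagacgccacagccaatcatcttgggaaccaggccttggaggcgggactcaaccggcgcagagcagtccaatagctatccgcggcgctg
Mcm6, chr1:128359706-128359955, minus strand: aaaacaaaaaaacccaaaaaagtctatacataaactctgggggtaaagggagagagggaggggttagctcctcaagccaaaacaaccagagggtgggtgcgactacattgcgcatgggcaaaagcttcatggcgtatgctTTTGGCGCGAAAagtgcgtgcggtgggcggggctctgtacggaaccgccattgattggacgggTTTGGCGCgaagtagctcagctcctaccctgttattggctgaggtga
Uhrf1, chr17:56304063-56304312, plus strand: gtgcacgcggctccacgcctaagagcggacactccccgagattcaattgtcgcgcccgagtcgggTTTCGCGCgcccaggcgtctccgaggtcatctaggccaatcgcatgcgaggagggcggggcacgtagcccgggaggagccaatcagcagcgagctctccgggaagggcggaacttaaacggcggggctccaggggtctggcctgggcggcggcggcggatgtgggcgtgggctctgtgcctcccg
Rrm2, chr12:24708004-24708253, plus strand: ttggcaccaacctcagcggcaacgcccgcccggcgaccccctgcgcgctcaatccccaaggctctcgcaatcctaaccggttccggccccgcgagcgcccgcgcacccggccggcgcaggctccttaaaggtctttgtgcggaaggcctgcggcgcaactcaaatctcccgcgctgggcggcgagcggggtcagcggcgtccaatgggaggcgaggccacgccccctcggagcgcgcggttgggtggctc
In Mcm5 an octamer on the gene's strand began 153 bases upstream and another on the opposite strand, sharing 4 of its bases, began 149 bases upstream. Mcm6 held such an overlapping pair at 110 and 106 bases and another octamer at 47 bases. A match of letters is a description of the window and not a measured site.

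The libraries held 13269763 to 18926894 recovered reads each, and reads per member and library ran from 0 to 60469. The libraries labelled Control 17 and Acu 4 stood apart. They held summed decidual genes of 13810 and 5692 FPKM against 22.1 to 324 elsewhere, Xist at 87.2 and 60.1 FPKM against at most 0.128, and almost no RNA of Y-linked genes, although the labels give male mice. Their 8 T cell genes summed to 10.8 and 9.45 FPKM and their 8 B cell genes to 1.90 and 4.57 FPKM. The library labelled Control 15 also held few lymphocyte genes (7.21 and 4.88 FPKM) and summed adipocyte genes of 27854 FPKM. The 7 others held T cell genes of 529 to 943 FPKM and B cell genes of 951 to 1298 FPKM, so Control 16 was the only Control library with the defining RNA of a lymph node. Results are therefore given for all 10 libraries and for the 8 without Control 17 and Acu 4.

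RNA of many S phase genes was higher after adjuvant than after saline, by the fit that leaves out Control 17 and Acu 4 and not by the fit of all 10 libraries. Over the 8 libraries 21 of the 42 members rose in AIA against Control at an adjusted p under 0.05, and none fell (limma, Benjamini-Hochberg over 16068 genes). Among all genes tested 4.29% rose, 9.2% fell and 13.5% were called in either direction. The median log2 difference of the 42 members was 1.15, with all 42 above 0 against 49.6% of all genes (from 0.11 for Ung to 3.12 for Rrm2), and that of all genes was -0.01. In 33 of 42 members every AIA library was above both Control libraries, as in 18% of all genes, and 31 members had an unadjusted p under 0.05, as did 30.3% of all genes. Over all 10 libraries no member passed (0.0235% of 17010 genes were called), with 30 at an unadjusted p under 0.05 against 25% of all genes. The median of the members was then 1.21 against -0.07 for all genes, and the smallest adjusted p was 0.0639, for Lig1. Without Control 15 the Control arm is Control 16 alone, and it is assumed to vary like the AIA and Acu libraries. No member was then called (3.1% of all genes), and the lowest adjusted p was 0.0588 (Rrm2). In that fit 23 members had an unadjusted p under 0.05 (15.9% of all genes), and the median was 1.02 with all 42 still above 0 (48.4% of all genes). The number called was 12 without AIA 5 (7.49% of all genes), 10 without AIA 31 (8.94%), 7 without AIA 38 (6.73%), 11 without Acu 6 (8.29%) and 10 without Acu 28 (7.91%). It was 29 without AIA 10, where 21.4% of all genes were called.

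Marker genes of other cell types differed between the same groups. The 8 plasma cell genes, for cells that secrete antibody, summed to 99.3 to 150 FPKM in Control, to 2615 to 4344 FPKM in AIA and to 200.3, 2601 and 1114 FPKM in Acu, and none was at 0 in any library. Over the 8 libraries 6 of these 8 genes rose in AIA against Control (median 2.42), 4 without Control 15 and 1 over all 10 libraries. Of 7 neutrophil genes tested 3 rose (1 without Control 15), and of 6 erythroid genes tested 5 fell (2 of 5 without Control 15). Adipocyte genes fell in 7 of 7 (5 without Control 15) and muscle genes in 2 of 7 (none without Control 15). None of the 8 T cell or 8 B cell genes passed in limma (7 and 4 had an unadjusted p under 0.05), with medians of 2.73 and 2.97, and without Control 15 these medians were 0.50 and -0.11. The part of these cells in the differences of the S phase genes was not tested.

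**Figure D1:**
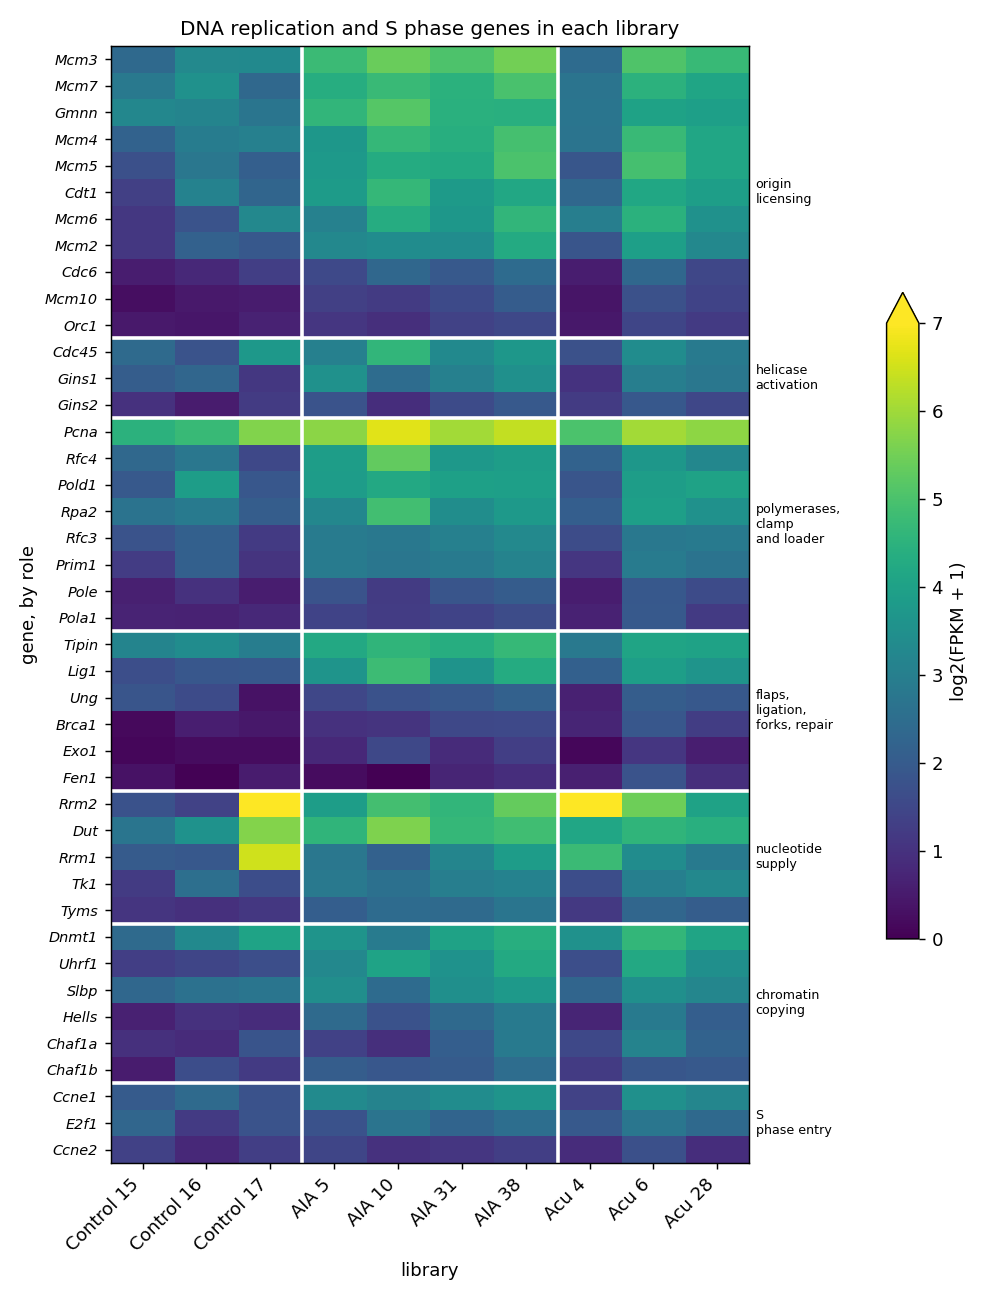
Each row is a member, grouped by role, each column a library, and colour the log2 of FPKM plus 1 (values over 7 share the top colour). The AIA libraries, Acu 6 and Acu 28 are brighter than the other 4 columns in most rows, whereas Rrm1 and Rrm2 are brightest in the libraries labelled Control 17 and Acu 4.

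Of the 11 genes grouped under licensing, 10 rose over the 8 libraries (all but Orc1), with a median log2 difference of 1.85. The group also holds Mcm10, which acts in starting replication. Mcm3, a subunit of the helicase ring (chr1:20802968-20820312, build mm10 as in the authors' table), stood at 4.25, 8.85 and 9.01 FPKM in Control 15, 16 and 17. It stood at 26.1, 41.4, 32.1 and 44.4 FPKM in AIA 5, 10, 31 and 38, and at 4.40, 32.7 and 25.5 FPKM in Acu 4, 6 and 28. All 4 AIA libraries, Acu 6 and Acu 28 lay above every Control library, and Acu 4 lay with Control. The log2 difference between AIA and Control was 2.33 (SE 0.37, adjusted p = 0.00774) over 8 libraries and 2.18 (SE 0.59, adjusted p = 0.0884) over 10.

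Mcm6, another ring subunit (chr1:128331590-128359664), stood at 1.19, 2.44 and 8.64 FPKM in the Control libraries, at 7.38, 19.3, 12.0 and 23.5 FPKM in AIA, and at 7.01, 21.2 and 10.7 FPKM in Acu. Control 17 overlapped the AIA range, which the other Control libraries did not. Mcm6 differed by 2.47 (SE 0.50, adjusted p = 0.0165) over 8 libraries. Mcm7 (chr5:138164583-138172422) stood at 6.16, 10.6 and 4.15 FPKM in Control, at 19.6, 25.8, 21.1 and 30.9 FPKM in AIA and at 5.42, 21.5 and 16.5 FPKM in Acu. Its groups did not overlap between AIA and Control, and the difference was 1.45 (SE 0.33, adjusted p = 0.0273) over 8 libraries. Of the other ring subunits, Mcm5 rose by 2.09 (SE 0.46), Mcm2 by 1.92 (SE 0.43) and Mcm4 by 1.85 (SE 0.42) on the log2 scale. The 6 subunits of the ring summed to 18.61, 38.004 and 35.26 FPKM in Control, to 86.5, 139, 113 and 178 FPKM in AIA, and to 27.6, 145 and 94.9 FPKM in Acu. They were not at equal levels: the highest was 2.28 to 5.19 times the lowest in each library, and Mcm3 was the highest in every AIA library, Acu 6 and Acu 28.

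Geminin, the inhibitor of licensing (Gmnn, chr13:24751845-24761923), stood at 8.43, 7.95 and 5.60 FPKM in Control, at 23.2, 34.7, 20.8 and 20.4 FPKM in AIA and at 5.57, 15.3 and 14.5 FPKM in Acu. The 3 sets Control, AIA, and Acu 6 with 28 did not overlap, with Acu between the other 2. Gmnn differed between AIA and Control by 1.45 (SE 0.31, adjusted p = 0.0203) over 8 libraries. Its target Cdt1, the loader of the ring, differed by 1.91 (SE 0.50, adjusted p = 0.0407). Its lowest AIA library was at 13.0 FPKM, and Control 15 and 16 were at 1.49 and 7.58 FPKM. Without Control 15 the difference was 0.98 for Cdt1 and 1.45 for Gmnn. The ratio of Cdt1 to Gmnn in FPKM was 0.177, 0.954 and 0.685 in the Control libraries, lay between 0.572 and 0.849 in AIA, and was 0.732, 1.11 and 0.972 in Acu. Cdc6 and Mcm10, which act in loading and in starting replication, rose by 1.39 (SE 0.37) and 1.156 (SE 0.30). Orc1 was low throughout, at 0.353 to 1.84 FPKM, and its difference of 0.78 had an adjusted p of 0.0834. An opposite-strand gene, Gm12743, shares 10.8% of its exon bases.

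**Figure D2:**
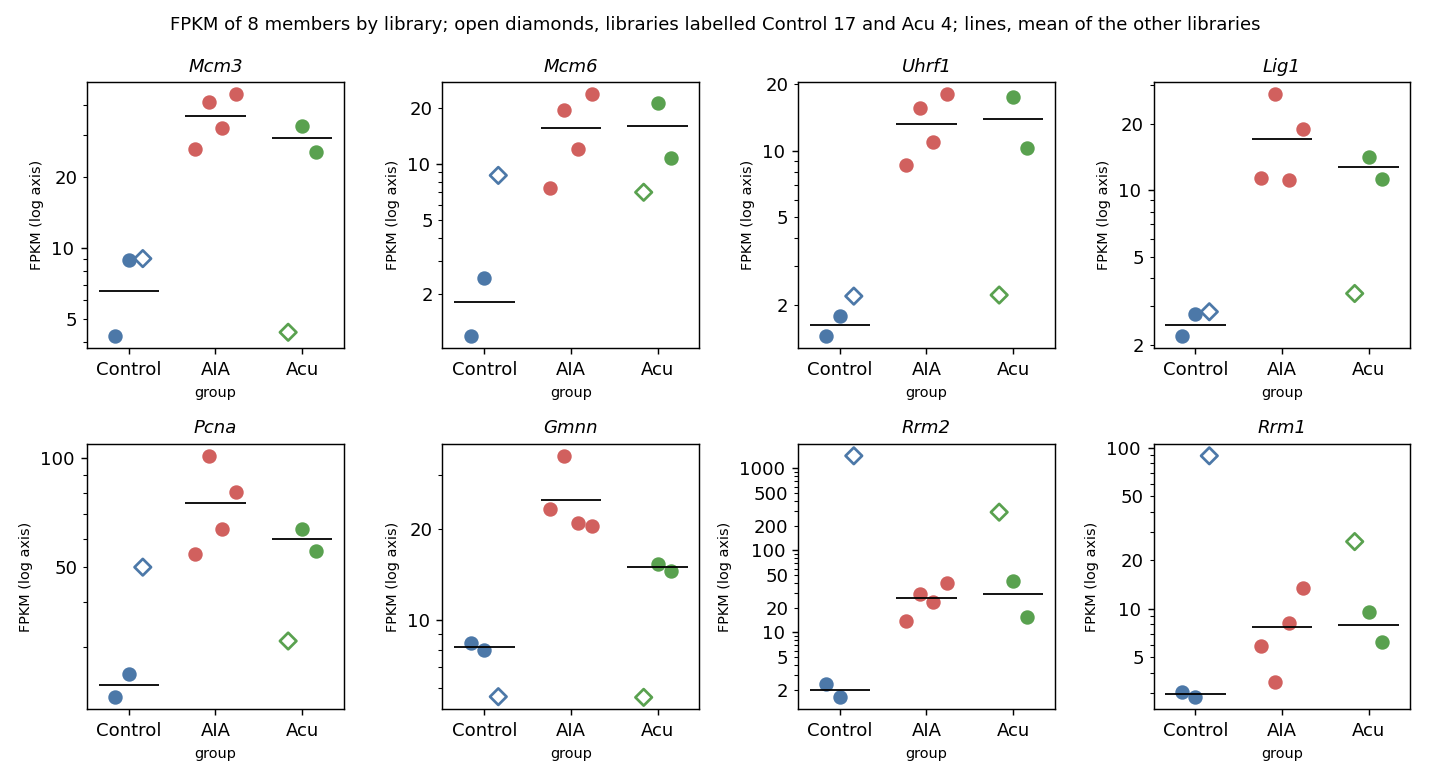
FPKM of 8 members on log axes by group, with 1 point per library, open diamonds for the libraries labelled Control 17 and Acu 4, and lines at the mean of the others. For Mcm3, Uhrf1, Lig1 and Gmnn every AIA point lies above every Control point, and for Rrm1 and Rrm2 both diamonds lie above every other point.

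None of the 3 helicase activators passed the threshold over the 8 libraries in limma, and 2 had an unadjusted p under 0.05. Cdc45, which joins the ring to the fork, stood at 4.35, 2.44 and 12.3 FPKM in Control, at 7.26, 23.6, 9.07 and 12.1 FPKM in AIA and at 2.34, 9.59 and 6.26 FPKM in Acu. Control 17 was within the AIA range, and over the other 8 libraries the difference of 1.57 (SE 0.46) had an adjusted p of 0.0587. Gins1, a GINS subunit, stood at 3.21, 3.93 and 1.20 FPKM in Control, at 10.6, 4.60, 7.31 and 10.5 FPKM in AIA and at 1.04, 6.99 and 5.78 FPKM in Acu. AIA 10, at 4.60 FPKM, was close to Control 16, and the difference of 0.95 (SE 0.35) had an adjusted p of 0.113. Gins2 was lower, at 1.01, 0.458 and 1.304 FPKM in Control, 2.48, 0.883, 2.03 and 2.86 FPKM in AIA, and 1.303, 2.82 and 1.79 FPKM in Acu. Control and AIA overlapped, and 67.3% of its exon bases are shared with Gse1 on the opposite strand, so its reads cannot be assigned with certainty.

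Of the 8 genes grouped as polymerases, clamp and clamp loader, 3 rose over the 8 libraries (Pcna, Rfc3 and Prim1), with a group median of 1.06. The group also holds Rpa2, a single-strand binding subunit. Pcna, the sliding clamp (chr2:132249162-132253314), was the most abundant member in each library except Control 17 and Acu 4. It stood at 21.8, 25.3 and 49.99 FPKM in Control, at 54.3, 102, 63.8 and 80.6 FPKM in AIA and at 31.2, 63.8 and 55.5 FPKM in Acu. Control 17 approached the lowest AIA library, and the difference was 1.59 (SE 0.35, adjusted p = 0.0237) over 8 libraries and 1.24 (SE 0.40, adjusted p = 0.117) over 10. Prim1, the primase that starts each new strand, rose by 1.22 (SE 0.32), and Rfc3, a subunit of the clamp loader, by 1.04 (SE 0.27).

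Rfc4, another clamp loader subunit that shares 12.7% of its exon bases with Eif4a2 on the opposite strand, stood at 4.12, 5.91 and 1.87 FPKM in Control, at 13.95, 38.6, 12.4 and 13.8 FPKM in AIA and at 3.60, 12.1 and 8.48 FPKM in Acu. AIA 10 was far above the other AIA libraries, and the difference of 1.63 (SE 0.47) had an adjusted p of 0.0555 over 8 libraries. Pold1, the catalytic subunit of polymerase delta, stood at 2.87, 13.97 and 2.76 FPKM in Control, at 13.6, 17.6, 14.8 and 14.6 FPKM in AIA and at 2.62, 13.9 and 15.3 FPKM in Acu. Control 16 was within the AIA range, whereas the 3 libraries with few lymphocyte genes (Control 15, Control 17 and Acu 4) were at 2.62 to 2.87 FPKM. The difference of 1.07 (SE 0.49) had an adjusted p of 0.181, and without Control 15 it was 0.06 (SE 0.30, adjusted p = 0.947). The catalytic genes Pola1 and Pole were at 0.461 to 3.11 FPKM with differences of 0.75 and 0.90, and the single-strand binding subunit Rpa2 differed by 1.05 (adjusted p = 0.168).

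Of the 5 genes of nucleotide supply, Rrm2, Dut and Tyms rose over the 8 libraries. Rrm2, the small subunit of ribonucleotide reductase, which makes deoxyribonucleotides (chr12:24708241-24714146), stood at 2.37 and 1.61 FPKM in Control 15 and 16, and at 1421 FPKM in the library labelled Control 17. It stood at 13.9, 29.1, 23.5 and 39.7 FPKM in AIA, at 292 FPKM in Acu 4, and at 42.8 and 15.4 FPKM in Acu 6 and 28. Over the 8 libraries the difference between AIA and Control was 3.12 (SE 0.51, adjusted p = 0.00819), and over 10 it was 0.15 (SE 1.94, adjusted p = 0.968). Rrm1, the large subunit (chr7:102441695-102469771), stood at 3.06, 2.82 and 89.2 FPKM in Control, at 5.89, 3.50, 8.14 and 13.5 FPKM in AIA and at 26.2, 9.54 and 6.22 FPKM in Acu. It differed by 1.02 (SE 0.45, adjusted p = 0.171) over 8 libraries and by -0.48 (SE 1.03, adjusted p = 0.788) over 10. The direction of Rrm1 thus depended on the library labelled Control 17.

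Dut, which removes dUTP, stood at 5.65, 10.8 and 51.2 FPKM in Control, at 23.1, 48.8, 24.1 and 27.8 FPKM in AIA and at 16.5, 22.8 and 20.5 FPKM in Acu. Control 17 was above all AIA libraries, and without it and Acu 4 the difference was 1.77 (SE 0.40, adjusted p = 0.0249). Tyms, which makes thymidylate, stood at 1.11, 0.957 and 1.21 FPKM in Control, at 3.22, 4.42, 4.39 and 5.58 FPKM in AIA and at 1.23, 3.94 and 3.19 FPKM in Acu. Its AIA and Control libraries did not overlap, and it differed by 1.39 (SE 0.27, adjusted p = 0.0158) over 8 libraries. Tk1, which salvages thymidine, differed by 0.99 (adjusted p = 0.135), and Control 16, at 4.92 FPKM, was close to AIA 10, at 4.99 FPKM.

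The libraries labelled Control 17 and Acu 4 held more reductase RNA than the other 8. Rrm2 made up 82% and 63% of the summed FPKM of the 42 members in these libraries, and 0.875% to 7.91% elsewhere. The ratio of Rrm2 to Rrm1 was 15.9 and 11.2, against 0.571 to 8.31. On the log2 scale Control 17 was above the mean of Control 15 and 16 by 8.91 for Rrm2, 4.52 for Rrm1, 2.56 for Dut and 1.81 for Mcm6. Besides Rrm1 and Rrm2 it was above that mean in 26 of 40 members, among them Cdc45 (1.63), Dnmt1 (1.19) and Pcna (1.06), where 45.4% of all genes were above it. Acu 4 was above the mean of Acu 6 and 28 by 3.45 for Rrm2 and 1.64 for Rrm1, and below it for the other 40 members, where 44.5% of all genes were above it. Against all 4 AIA libraries, Control 17 was lower in 30 of 42 members and higher in 3 (Rrm1, Rrm2 and Dut), where 30.7% and 32.5% of all genes were so placed. Acu 4 was lower in 35 members and higher in 2 (29.3% and 32.1% of all genes). The same libraries held the decidual genes and, in Acu 4, summed trophoblast genes of 5660 FPKM. The part of those cells in the reductase values was not tested.

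Lig1 and Tipin rose among the 6 genes for flap removal, ligation, fork protection and repair. Lig1, which seals the pieces of the lagging strand (chr7:13277283-13311433), stood at 2.19, 2.74 and 2.82 FPKM in Control, at 11.3, 27.1, 11.1 and 18.9 FPKM in AIA and at 3.41, 14.1 and 11.3 FPKM in Acu. Every AIA library was far above every Control library, and the difference was 2.29 (SE 0.40, adjusted p = 0.01) over 8 libraries. Tipin, which steadies stalled forks, stood at 7.94, 9.52 and 6.76 FPKM in Control, at 17.8, 23.0, 19.5 and 24.7 FPKM in AIA and at 6.08, 16.1 and 15.3 FPKM in Acu. AIA and Control did not overlap, and the difference was 1.18 (SE 0.28, adjusted p = 0.0282).

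Ung, the uracil glycosylase that also acts in antibody class switching, stood at 2.57, 2.05 and 0.274 FPKM in Control, at 1.81, 2.39, 2.81 and 3.49 FPKM in AIA and at 0.563, 3.16 and 2.83 FPKM in Acu. Control 15 and 16 lay within the AIA range, and the difference over 8 libraries was 0.11 (SE 0.28, adjusted p = 0.832). Brca1 and Exo1, for break repair and end resection, were at 0.082 to 2.75 FPKM with differences of 0.91 and 0.95 (adjusted p = 0.091 and 0.0695). Fen1, the flap nuclease, was at 0 to 2.44 FPKM, from 0 to 120 reads per library. Gm10143 on the opposite strand covers 78.8% of its exon bases, so its values are uncertain.

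Of the 6 chromatin genes, Uhrf1 and Hells rose. Uhrf1, which guides DNA methylation to new strands (chr17:56303321-56323486), had the smallest adjusted p of all members over 8 libraries. It stood at 1.44, 1.78 and 2.19 FPKM in Control, at 8.58, 15.6, 10.96 and 17.996 FPKM in AIA and at 2.21, 17.5 and 10.3 FPKM in Acu. Acu 4 lay with Control and no AIA library did, and the difference was 2.40 (SE 0.37, adjusted p = 0.00673) over 8 libraries and 2.31 (SE 0.54, adjusted p = 0.0715) over 10. Hells, a chromatin remodeller, differed by 1.54 (SE 0.38, adjusted p = 0.0336).

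Dnmt1, the methyltransferase that works with Uhrf1, stood at 4.32, 8.97 and 15.6 FPKM in Control, at 11.3, 6.46, 15.4 and 20.0 FPKM in AIA and at 10.7, 24.0 and 15.9 FPKM in Acu. Its groups overlapped, and the difference of 0.86 (SE 0.47) had an adjusted p of 0.257. Slbp, which binds histone mRNA, stood at 4.08, 5.13 and 5.64 FPKM in Control, at 9.95, 4.43, 10.2 and 12.5 FPKM in AIA and at 3.91, 10.2 and 8.29 FPKM in Acu. AIA 10 was at the level of Control and the other AIA libraries were above it, with a difference of 0.79 (SE 0.39, adjusted p = 0.212). The histone chaperone subunits Chaf1a and Chaf1b differed by 0.90 and 1.02 (adjusted p = 0.301 and 0.0986 in limma). In GENCODE M21, 52.5% of the 8854 exon bases of Chaf1a are shared with Ubxn6 on the opposite strand. The authors' table gives Chaf1a 3308 bases, so the share of its counted bases is not known.

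Among the genes of S phase entry, cyclin E1 rose. Ccne1 stood at 3.04, 4.38 and 2.40 FPKM in Control, at 9.17, 7.82, 9.56 and 11.3 FPKM in AIA and at 1.58, 10.3 and 8.25 FPKM in Acu. Its AIA and Control libraries did not overlap, and it differed by 1.15 (SE 0.28, adjusted p = 0.0329) over 8 libraries. Ccne2, the second cyclin E, stood at 1.57, 0.759 and 1.45 FPKM in Control, at 1.76, 0.984, 1.1596 and 1.46 FPKM in AIA and at 0.845, 2.26 and 0.898 FPKM in Acu. Its groups overlapped throughout, with a difference of 0.12 (SE 0.31, adjusted p = 0.831), and 17.4% of its exon bases are shared with Ints8 on the opposite strand. E2f1, the transcription factor of the G1 to S boundary, stood at 3.93, 1.29 and 2.46 FPKM in Control, at 2.42, 5.51, 3.80 and 4.79 FPKM in AIA and at 2.85, 5.66 and 4.201 FPKM in Acu. Control 15 was within the AIA range, and the difference was 0.56 (SE 0.40, adjusted p = 0.386).

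The 14 members with an E2F octamer in at least 1 window had a median log2 difference of 1.49 between AIA and Control over the 8 libraries (0.75 to 2.47), and 10 of them rose. The 20 members whose windows lacked these letters had a median of 1.10 (0.11 to 3.12), and 8 of them rose. The ranges overlapped, and Rrm2, with no octamer in its window, had the largest difference over the 8 libraries. These counts are given as a description, with no test.

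**Figure D3:**
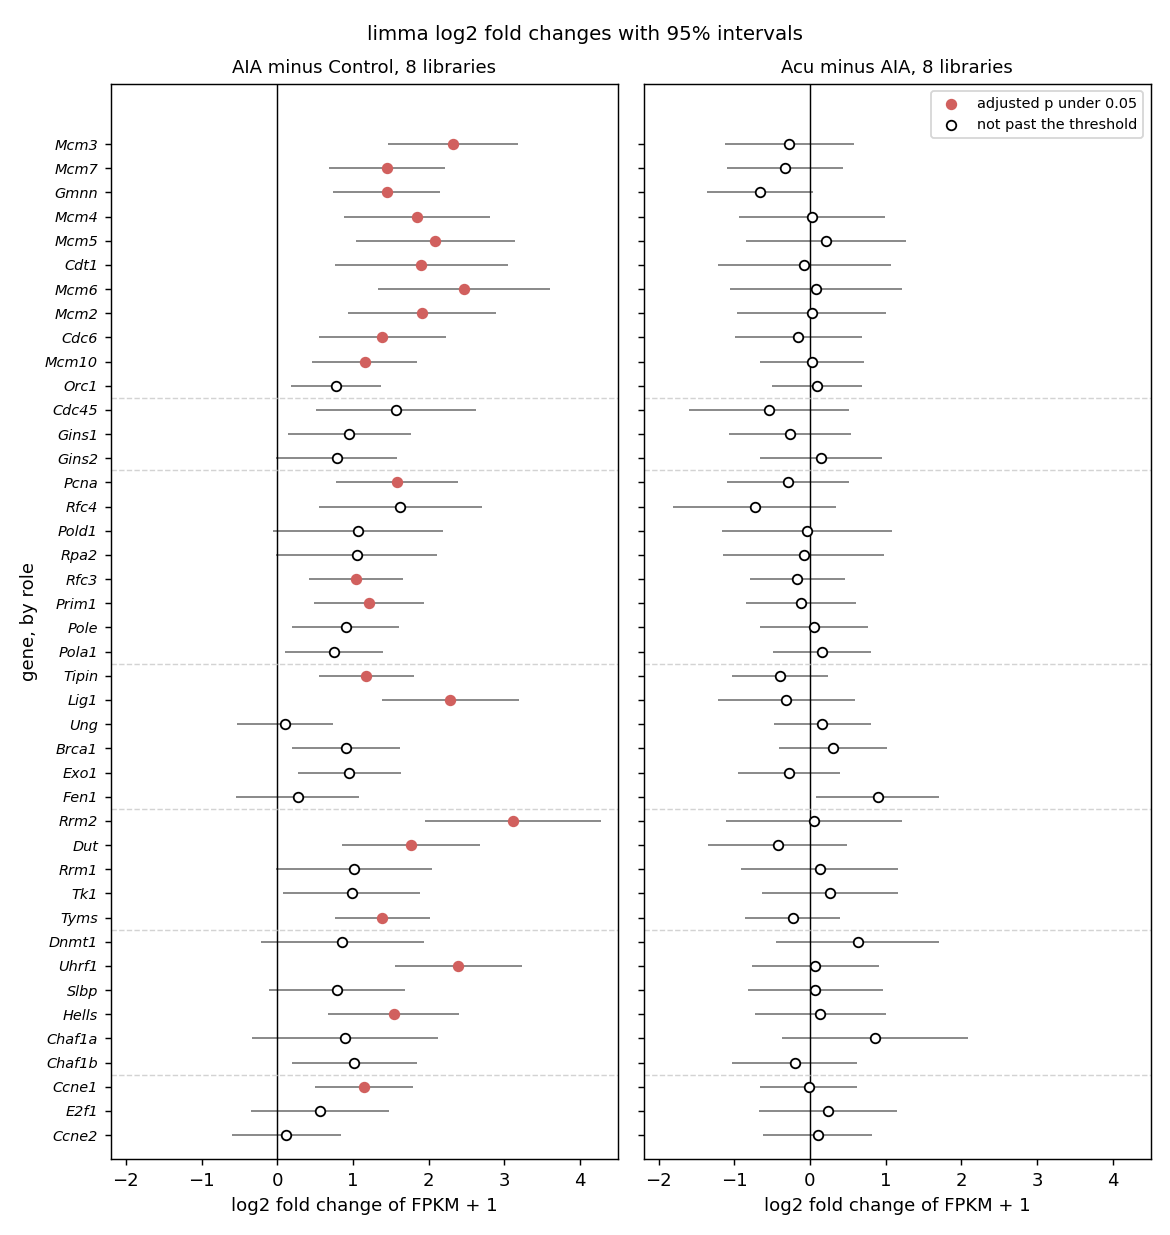
Points are limma log2 fold changes of FPKM plus 1 over the 8 libraries with 95% intervals, for AIA minus Control (left) and Acu minus AIA (right), by role; filled points passed the threshold. All 42 points on the left lie above 0 and 21 are filled, whereas those on the right lie on both sides of 0 and none is filled.

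Control 15 and Control 16 were low in most S phase genes, and their cell content differed. The part of cell content in these low values was not tested. Control 16 had summed B cell genes of 996 FPKM, within the AIA range, and T cell genes of 536 FPKM, below the 676 to 943 FPKM of AIA. It was below all 4 AIA libraries in 37 of 42 members, where 24.6% of all genes were so placed. It was below both Acu 6 and 28 in 41 (44.6%), and within the AIA range in 5 (Pold1, Fen1, Dnmt1, Slbp and Ung). Control 15, with few lymphocyte genes, was below all 4 AIA libraries in 36 members (29.2% of all genes) and within their range in 6 (Gins2, Fen1, Chaf1a, E2f1, Ccne2 and Ung). The median ratio of a member to its AIA median was 0.356 in Control 16 and 0.257 in Control 15. Per 100 FPKM of the 8 B cell genes, the members other than Rrm2 summed to 18.3 FPKM in Control 16, to 39.8, 51.7, 36.2 and 48.3 FPKM in AIA, and to 52.3 and 28.9 FPKM in Acu 6 and 28. Per 100 FPKM of the 8 T cell genes they summed to 34.1 FPKM in Control 16, to 40.1, 63.5, 53.8 and 86.6 FPKM in AIA, and to 94.2 and 54.4 FPKM in Acu 6 and 28. Control 16 was the lowest of these 7 libraries on both scales, with AIA 5 close to it on the scale of T cell genes. It also held summed adipocyte genes of 9622 FPKM and muscle genes of 9671 FPKM, against 47.8 to 406 and 12.0 to 1363 FPKM in AIA. The part of fat and muscle RNA in the difference was not tested, and in bulk tissue fewer dividing cells and less RNA per cell cannot be told apart.

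Acupuncture was compared with adjuvant alone. Over the 8 libraries no member passed the threshold between Acu and AIA (limma; 0% of 16068 genes were called, and none of the members with voom on the recovered reads). A single member, Fen1, had an unadjusted p under 0.05, against 2.97% of all genes. The median of the 42 members was 0.02 and that of all genes 0.06, and 22 members were above 0, as were 56.3% of all genes. The 95% interval of the log2 difference reached 0.84 to either side at the median member. It lay within -1 and 1 for 16 of the 42 members, wholly above -1 for 26 and wholly below 1 for 28. On the scale of log2 of FPKM plus 1, a difference of 1 is more than a doubling of FPKM, above all for low members. With 2 Acu libraries against 4, differences larger than this could also pass uncalled. Over the same 8 libraries muscle genes differed by up to 3.41 between Acu and AIA without a call.

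The members at the ends of the Acu and AIA comparison had values as follows. Fen1, at 2.44 and 0.926 FPKM in Acu 6 and 28 against 0 to 0.899 FPKM in AIA, differed by 0.90 (SE 0.35, adjusted p = 0.984). Chaf1a, at 7.83 and 3.58 FPKM against 0.907 to 6.35 FPKM in AIA, differed by 0.86 (SE 0.54). By GENCODE M21 both overlap a gene on the opposite strand, as does Rfc4. At the other end Rfc4 differed by -0.73 (SE 0.47) and Gmnn by -0.66 (SE 0.31, adjusted p = 0.984 in limma). For 4 members, Gmnn, Rfc4, Tipin and Dut, both Acu libraries were below all 4 AIA libraries, as in 7.7% of all genes, and for Fen1 both were above, as in 9.37%. The ring subunits differed by -0.33 (Mcm7) to 0.21 (Mcm5), Uhrf1 by 0.07 (SE 0.37), Pcna by -0.29 (SE 0.35), Rrm2 by 0.05 (SE 0.51) and Lig1 by -0.32 (SE 0.40).

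Acu 6 and Acu 28 were each set beside the 4 AIA libraries. Acu 6 was above all 4 AIA libraries in 9 members (Rrm2, Pola1, Fen1, Chaf1a, Dnmt1, E2f1, Ccne2, Brca1 and Hells; 23.3% of all genes) and below them in 6 (16.9%), with a median ratio to the AIA median of 1.14. Acu 28 was below all 4 in 13 members, among them Mcm3, Mcm7, Tyms, Cdc45 and Gmnn, where 13.3% of all genes were so placed, and above them in 2 (Fen1 and Tk1; 18.1%), with a median ratio of 0.803. Over all 10 libraries 35 of the 42 members were below 0 between Acu and AIA, with a median of -0.55 against 0.08 for all genes, 55.7% of which were above 0. No member passed, and 3 had an unadjusted p under 0.05 (Gmnn, Tipin and Rfc4), against 4.7% of all genes, with 0% called. Over the 8 libraries, which leave out both Control 17 and Acu 4, the median of the members was 0.02.

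Acu against Control gave 4 members that rose over the 8 libraries, where 0.871% of all genes rose and 4.39% were called in either direction. They were Uhrf1 (2.47, SE 0.43, adjusted p = 0.0226), Rrm2 (3.17, SE 0.59, adjusted p = 0.0273), Mcm3 (2.05, SE 0.43, adjusted p = 0.0384) and Mcm6 (2.55, SE 0.57, adjusted p = 0.0463). The median was 1.14 against 0.06 for all genes, and 40 members lay above both Control libraries in both Acu libraries, as did 32.4% of all genes. In 29 members the unadjusted p was under 0.05 (22.7% of all genes). No member was called without Control 15, without Acu 6 or without Acu 28, where 0% of all genes were called in each case. There were 15 called without AIA 10 (13% of all genes) and 11 without Control 16 (13.3%). Leaving out a Control or Acu library leaves 1 in that group. Over all 10 libraries none was called (0% of all genes), and 6 had an unadjusted p under 0.05, as did 7.5% of all genes. This comparison shares its Control libraries with the one of AIA and Control, so they are not independent.

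S phase genes were then set beside 12 genes of G2 and mitosis, among them Mki67, a marker of dividing cells. The mean log2 of FPKM plus 1 of the 42 members was 1.63, 1.97 and 2.23 in Control, 2.85, 3.11, 3.05 and 3.43 in AIA, and 1.96, 3.30 and 2.87 in Acu. That of the G2 and mitosis genes was 1.00, 1.32 and 1.55 in Control, 3.34, 3.69, 3.45 and 3.85 in AIA, and 1.47, 3.60 and 2.95 in Acu. The S phase mean was the higher of both by 0.49 to 0.68 in the Control libraries and Acu 4, and the lower by 0.08 to 0.58 in the other 6 libraries. All 11 G2 and mitosis genes tested rose in AIA against Control over the 8 libraries, with a median of 2.53 beside 1.15 for the members, and 4 of the 11 rose without Control 15, where all 11 had an unadjusted p under 0.05. Over all 10 libraries none of the 11 passed in limma, and all 11 had an unadjusted p under 0.05, against 25% of all genes. Between Acu and AIA their median was -0.44, with none called and none at an unadjusted p under 0.05. Mki67 stood at 1.85, 5.96 and 4.27 FPKM in Control, at 59.4, 34.4, 55.8 and 59.5 FPKM in AIA and at 3.20, 42.6 and 26.9 FPKM in Acu.

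**Figure D4:**
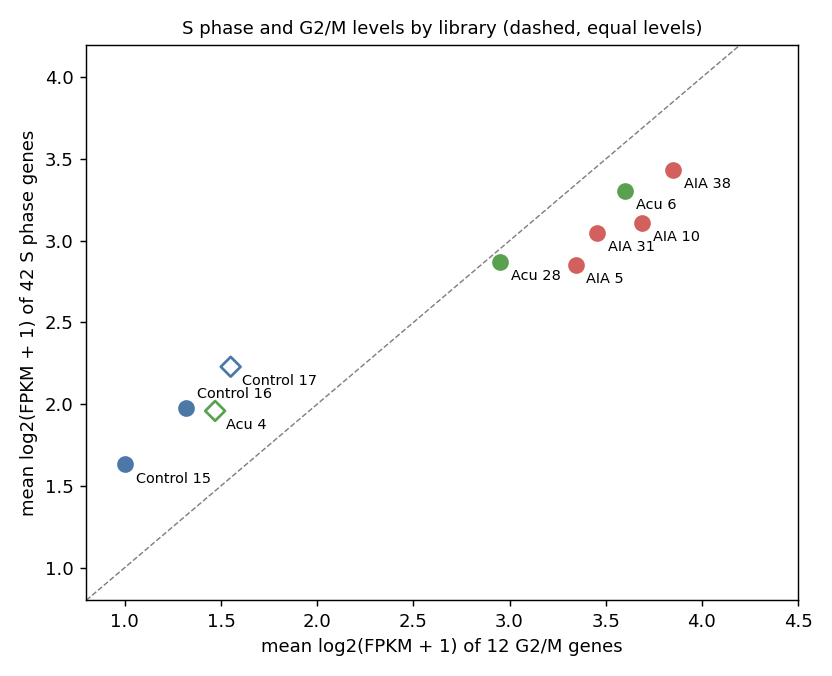
Each point is a library, with the mean log2 of FPKM plus 1 of 12 G2 and mitosis genes on the x axis and of the 42 S phase genes on the y axis; open diamonds are the libraries labelled Control 17 and Acu 4. The Control libraries and Acu 4 lie above the line of equal levels and the 6 other libraries lie below it.

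Further genes of DNA replication, outside the 42, were counted from a list of 51, of which 50 were tested. Over the 8 libraries 9 rose and none fell in AIA against Control, where 4.29% of all genes rose and 9.2% fell. The median of the 50 was 0.66. Among those that rose were Pclaf, a partner of Pcna (3.12, SE 0.39, adjusted p = 0.00339), and Rfc5, of the clamp loader (1.502, SE 0.33, adjusted p = 0.0237). Pclaf stood at 0.493, 0.955 and 1.96 FPKM in Control and at 8.97, 18.4, 12.6 and 17.7 FPKM in AIA. Without Control 15 the number that rose was 2, Pclaf among them (adjusted p = 0.0394). None of the 50 passed over all 10 libraries in limma, and 18 had an unadjusted p under 0.05, against 25% of all genes. Between Acu and AIA over the 8 libraries none passed in limma, and 2 had an unadjusted p under 0.05, against 2.97% of all genes. Rpa3 differed there by -0.78 and Orc5 by -0.56, each at an adjusted p of 0.984.

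Of 28 regulators of the step from G1 to S, 6 rose and 2 fell over the 8 libraries. Among all genes tested 4.29% rose and 9.2% fell. The median of the 28 regulators was 0.36. Without Control 15 the median was 0.52, and Ccna2, Cdkn2a and Cdkn1c, described next, did not pass the threshold. Ccna2, the cyclin of S phase, rose by 2.63 (SE 0.46, adjusted p = 0.01), and Cdkn2a, which encodes inhibitors of cyclin D kinases and of Mdm2, by 1.86 (SE 0.32, adjusted p = 0.0102). Cdkn1c, an inhibitor of cyclin kinases, fell by 3.22 (SE 0.47, adjusted p = 0.00547). It stood at 45.7, 18.8 and 3.80 FPKM in Control, at 3.28, 1.64, 3.67 and 1.18 FPKM in AIA and at 33.8, 1.64 and 3.35 FPKM in Acu. Control 15, Acu 4 and Control 16 were high, and Control 17, with the highest decidual genes, was close to AIA. Fat genes were high in Control 15 and 16, and the part of other tissues was not tested. Between Acu and AIA none of the 28 passed or had an unadjusted p under 0.05, with Ccnd1 at 0.88, Rbl2 at 0.78 and Cdkn2d at 0.46, each at an adjusted p of 0.984.

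Among the members, the difference of AIA 10 from the other AIA libraries changed along gene length. AIA 10 had the fewest reads and 15116 genes above 0, where the other libraries had 21224 to 24411. The 11 members under 3000 bases had a median log2 difference of 0.63 from the mean of the other AIA libraries, with 8 above 0. The 20 members of 3000 to 6000 bases had a median of 0.04, and the 11 of at least 6000 bases a median of -0.43, with 2 above 0. Over all genes tested the medians of the same bins were -0.16, -0.16 and -0.29. Among the short members Gins1 (-0.88), Fen1 (-0.62) and Ccne1 (-0.31) were lower in AIA 10. The short genes Rfc4 (1.46), Rpa2 (1.40) and Cdc45 (1.25) were the most raised in it, and Slbp (-1.12), Dnmt1 (-1.12), Rrm1 (-1.11) and Chaf1a (-1.18) the most lowered. Without AIA 10, 29 members in place of 21 were called between AIA and Control over the 8 libraries.

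**Figure D5:**
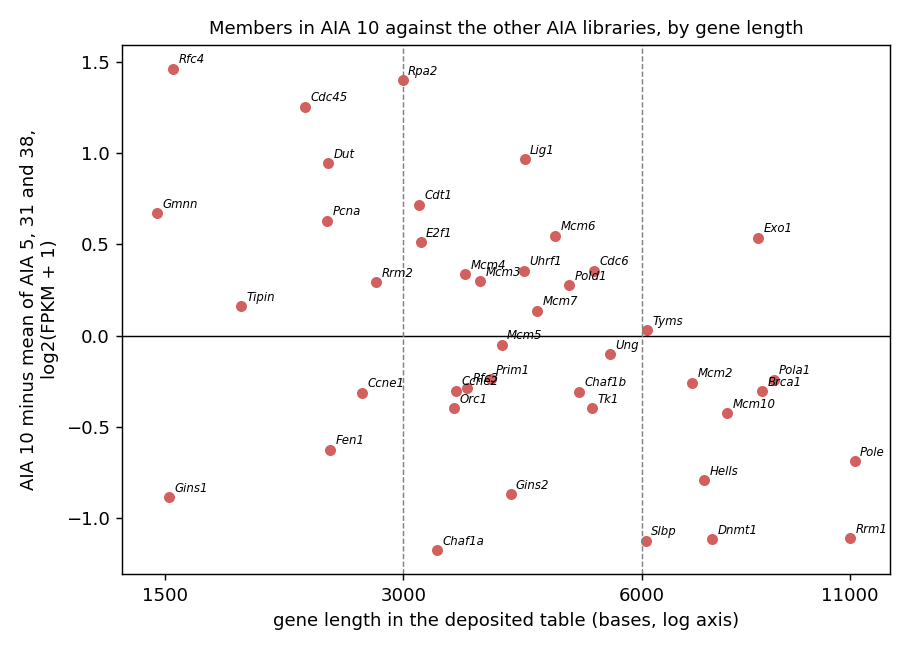
Each point is a member, with gene length in the authors' table on the x axis (log axis) and the log2 of FPKM plus 1 in AIA 10 minus the mean of AIA 5, 31 and 38 on the y axis; dashed lines mark 3000 and 6000 bases. Of the 11 members of at least 6000 bases 2 lie above 0, and of the 11 under 3000 bases 8 do.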

How the data were processed

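Popliteal lymph nodes gave 10 libraries in 3 groups. Per the labels' protocols, Trizol was used for extraction and NEBNext Ultra RNA for the libraries. The submitters' processing notes list DESeq2 1.16.1, featureCounts 1.5.0-p3, HISAT2 2.0.5, StringTie 1.3.3b and build mm10 and give them no role. The strand setting of the counting is not given in the sources here. The authors deposited FPKM for 54987 genes. The values keep their depth: within 0.01 of a step, 100% of genes above 0 had a length-corrected value that counts whole reads, and these recovered reads came to 13269763 to 18926894 per library.

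FPKM were scaled by the median of ratios, and log2(FPKM + 1) of genes with at least 0.5 FPKM in at least 3 libraries was fitted with limma 3.58.1 in R 4.3.3 (mean-variance trend), with the 3 groups in a single fit, so that the Acu libraries also enter the spread of AIA against Control. This was done over all 10 libraries and over the 8 without Control 17 and Acu 4. The pseudocount of 1 makes differences of low genes smaller. p-values were adjusted by Benjamini and Hochberg over all genes tested, with a threshold of 0.05. SE stands for the moderated standard error in limma. Fits were also run on simulated reads, where every library had the same mean profile apart from genes raised in AIA. That run cannot show how the fits behave with libraries of unlike tissue content. Alternatives changed the pseudocount, the filter, the scaling, the model (voom on the recovered reads, array weights), the groups fitted, and left out each library. Exon overlaps came from GENCODE M21 and promoter windows from RefSeq (GRCm38.p6). Python 3.11.15 with pandas 2.3.3 and matplotlib 3.10.9 was used for tables and figures.

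The members, the lists and the choice of the 8 libraries were made with earlier results of these data known. Values in every library are given for the 3 members of highest mean FPKM in each role and, of members past the threshold over the 8 libraries, for those with the 6 smallest p in each comparison. Of the other lists the 3 genes of smallest p are named, except for a gene that enters the counts and is not reported here, and other names and values were chosen after their values were seen.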

Additional observations from a re-analysis of the deposited data

Results flagged for a closer look

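Rfc4, the clamp loader subunit, stood at 38.6 FPKM in AIA 10, the highest of the 4 AIA libraries, beside 13.95, 12.4 and 13.8 FPKM in AIA 5, 31 and 38. On the scale of log2 of FPKM plus 1 its gap to the next library was 0.899 of the range of the group, above the 95% limit of Dixon's test for 4 values. It was the only one among 25 sets of 4 AIA values checked, and chance alone flags about 1 in 20. At 1534 bases it is among the shortest members, of which 8 of 11 under 3000 bases were higher in AIA 10 than in the mean of the others and 3, Gins1, Fen1 and Ccne1, were lower. Rfc4 shares 12.7% of its exon bases with Eif4a2 on the opposite strand. The part of length or of the overlap was not tested.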

How the results depend on the processing

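No paired analysis was possible because the groups share no replicate number. Over the 8 libraries the count of members called in AIA against Control was 21 and stayed between 16 and 21 with another pseudocount, filter, scaling or voom. It was 11 with array weights and 10 with only the groups compared, and leaving out a library gave 0 to 29. For Acu against Control it was 4, with 2 at a pseudocount of 0.1, 2 with voom, 0 with only the groups compared, and 0 to 15 when a library was left out. Over all 10 libraries AIA against Control gave 0, but 24 with array weights, which weigh down libraries that stand apart. That setting called 3319 of 17010 genes in all. The count of members was 8 with only the groups compared, and 0 to 18 when a library was left out (0 to 1707 of all genes), with 18 without Acu 4 and 3 without Control 17. Acu against Control gave 0, with 17 under array weights (2067 of 17010 genes in all) and 0 to 1 when a library was left out (0 to 299 of all genes). For Acu against AIA no setting called a member in either set of libraries. The cause of these shifts was not tested, except that leaving out libraries or a group leaves fewer samples to estimate the spread.

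Over all genes, AIA against Control gave 4 genes over 10 libraries (0 to 3319 among the settings, the highest with array weights). Over 8 it gave 2167 (1279 with only the groups compared to 2527 with no filter on low values). Acu against Control gave 0 (0 to 2067, the highest with array weights) and 706 (25 with only the groups compared to 1040). Acu against AIA gave 0 (0 to 98) and 0 (0 to 70).

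Of the 1140 single differences recomputed for named members, 1012 kept their direction and side of the threshold, 73 lost and 44 gained the call, and 11 reversed. Rrm1 in AIA against Control over 10 libraries turned from -0.48 to 0.56 with array weights and ran from -1.26 to 1.03 when a library was left out. Rrm2 ran from -1.42 to 3.12 in the same way, below 0 without Control 15 (-1.24), Control 16 (-1.42) or AIA 38 (-0.061). Ccne2 ran from -0.11 to 0.18 over 10 libraries and from -0.15 to 0.38 over 8, and from -0.16 to 0.61 for Acu against Control. Ung ran from -0.012 to 0.23 over 8. The low members rest on few reads, among them Fen1 (0 to 120 per library), Exo1 (11 to 212) and Orc1 (19 to 123). The part of depth was not tested.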
